A study of Mus musculus with 3 samples.

Results

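The genes described here are 43 interferon-stimulated genes, listed by symbol as textbook members of the interferon response. These genes were chosen with earlier results of these data known, so their contrast with all loci is no independent evidence. Of these, 41 have a row of their own in the deposited gene table of 24401 loci, and all 41 had a mean of 1 FPKM or more over the 3 libraries, as did 11858 loci in all. FPKM scales a gene's sequenced fragments by transcript length and by the fragments mapped in the library, so levels of different genes can be set side by side. The other 2, Ddx58 and Irf9, are held in rows that also carry a neighbouring gene and are given apart from the counts.

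RNA was sequenced from C2C12 myotubes, fibres formed in culture from a line of mouse myoblasts, with 1 library for each of 3 media. The myoblasts were first made to fuse over 72 hours by DMEM that held 1 µg/ml insulin and horse serum at 2%. They then spent 24 hours in DMEM for the control, in medium that the human pancreatic cancer line S2-013 had conditioned for 24 hours, or in such conditioned medium with 50 µM resveratrol, a polyphenol of plants. A culture with resveratrol alone was not analysed here. With 1 library a group, no difference below has a replicate check, no SD and no p-value of its own could be computed, and the spread between cultures is unknown.

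Type I interferons bind the receptor pair Ifnar1 and Ifnar2, whose kinases Jak1 and Tyk2 phosphorylate Stat2 and other factors. A complex that holds Stat2 and Irf9 then binds the interferon-stimulated response element in promoters, and so switches on genes that sense, cut, bind or modify foreign RNA and block the entry and release of viruses. Many cells, muscle cells among them, also transcribe these genes at a lower level without an infection, and several of the products, such as Stat2, Irf7 and Irf9, are themselves parts of the pathway.

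The depth of the libraries is not known from FPKM, and 11609 to 12004 loci reached 1 FPKM in a library. The myotube markers Myog, Myh3, Ckm, Acta1, Des and Tnnt3 stood between 43.2 and 2272.5 FPKM in every library. Their summed level was 2990, 2836 and 4223 FPKM in control, conditioned media and conditioned media with resveratrol. This sum was highest with resveratrol, where most of the 41 genes were lowest, and its part in the results was not tested. It was led by Acta1 at 1568, 1496 and 2272.5 FPKM. Ckm went the other way, at 60.8, 56.3 and 43.2 FPKM, and Myh3 differed little, at 184, 158 and 192 FPKM. The labels give the cell type as myoblast. Of 6 macrophage markers, Ptprc and Adgre1 were listed at 0 in all 3 libraries and only Cd68 averaged 1 FPKM or more, with a summed level of 1.35, 2.03 and 1.97 FPKM. None of 5 markers of dendritic cells and lymphocytes exceeded 0.040 FPKM, and none of 3 endothelial markers 0.274 FPKM. Fibroblast markers were led by Col1a1 at 899, 1056 and 527 FPKM, a gene that C2C12 cells also transcribe. Their sum of 909, 1070 and 537 FPKM is almost wholly Col1a1, while Pdgfra was at 4.98, 9.86 and 6.98 FPKM, Dpt at 4.39, 3.78 and 2.98 FPKM and Thy1 at 0.070 FPKM or less. The part of these markers in the results was not tested. In bulk RNA, fewer cells that express a gene and less RNA of it per cell cannot be told apart.

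In the text that follows, each set of 3 FPKM values begins with control, goes on with conditioned media and ends with conditioned media plus resveratrol. Ratios are log2 ratios of FPKM + 1, which understate changes of low genes. The size rule calls a gene higher or lower where this ratio reached 1 or -1, that is a factor of 2, at a mean of 1 FPKM or more. The 3 comparisons share libraries, so their ratios are given side by side and are not independent of each other. The calls of the authors' deposited table come from Cuffdiff and compare these libraries, not the conditions.

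On the deposited scale, most interferon-stimulated genes stood highest in control medium and lowest with resveratrol. In conditioned media over control, 31 of 41 had ratios below 0, with a median of -0.27 against -0.01 over all loci, and none passed the size rule in either direction, where 1.98% of all loci were higher and 0.751% lower. With resveratrol over conditioned media, 33 of 41 had ratios below 0 and the median was -0.43 against 0.03 over all loci. Here 3 genes (7.32%) were lower by the size rule and 0 higher, where 4.97% of all loci were lower and 1.53% higher. With resveratrol over control, 34 of 41 had ratios below 0, with a median of -0.61 against 0.00 over all loci. In that comparison 9 genes (22%) were lower by the size rule and 0 higher, where 5.25% of all loci were lower and 3.6% higher.

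Rescaling FPKM to TPM gives every library the same sum but also shrinks all values, so that the pseudocount of 1 weighs more. It moved the median ratio of all loci to 0.14 in both comparisons with control. On that scale 25 of 41 genes had ratios below 0 in conditioned media over control, with a median of -0.08, and the counts with resveratrol were 33 over conditioned media and 32 over control, with medians of -0.41 and -0.40. Equal sums at the mean level of the libraries, which leave the pseudocount at its weight, gave the same 3 counts, medians of -0.08, -0.43 and -0.42, and medians of all loci of 0.17, 0.02 and 0.18. With resveratrol over control, 8 of the 41 genes were lower by the size rule and 0 higher under either rescaling. Calls over all loci there moved from 427 higher and 622 lower to 648 and 425 with equal sums and to 354 and 219 as TPM. The locus of 9 of the 41 genes shares its position with another locus, and without these 9 the count of lower genes in that comparison was 8 of 32. The authors' deposited table calls 25 of the 41 genes lower and 10 higher in conditioned media, where it calls 29.9% and 25.8% of all tested loci. For resveratrol over conditioned media it calls 31 lower and 5 higher, against 29.5% and 34.1% of all tested loci. For resveratrol over control these counts were 31 and 6, against 34.1% in each direction.

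**Figure D1:**
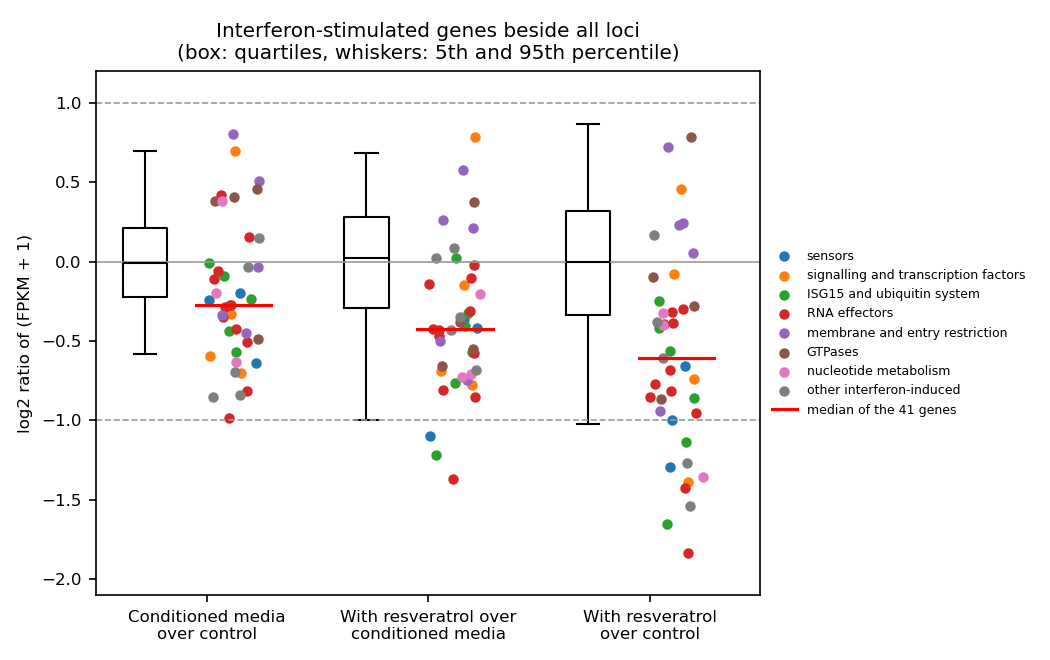
Log2 ratios of FPKM + 1 (vertical axis) of the 41 genes, coloured by role, beside a box for all 11858 loci with its quartiles and the 5th and 95th percentiles, for the 3 comparisons (horizontal axis). Dashed lines mark ratios of 1 and -1, and red bars mark the medians of the 41 genes at -0.27, -0.43 and -0.61, each below the median of all loci.

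The order of the 3 libraries separated the genes into groups. On the deposited scale, control was highest, conditioned media between and resveratrol lowest for 26 of 41 genes (63.4%). This order was held by 21.4% of the 11858 loci. In all, 32 genes had their lowest value with resveratrol (78%, against 37.1% of loci). Another 6 genes (14.6%, against 39.7% of loci) were highest with resveratrol, namely Irf7, Bst2, Ifitm2, Ifitm3, Gbp2 and Ifi27. The 7 genes that were highest in conditioned media (17.1%, against 26.1% of loci) were Irf1, Mx1, Mx2, Rsad2, Ifit2, Oasl1 and Ifitm1. Orders were not counted on the rescaled values. There, genes with ratios below 0 in conditioned media over control fell from 31 to 25 of 41, so these orders depend in part on the scale.

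**Figure D2:**
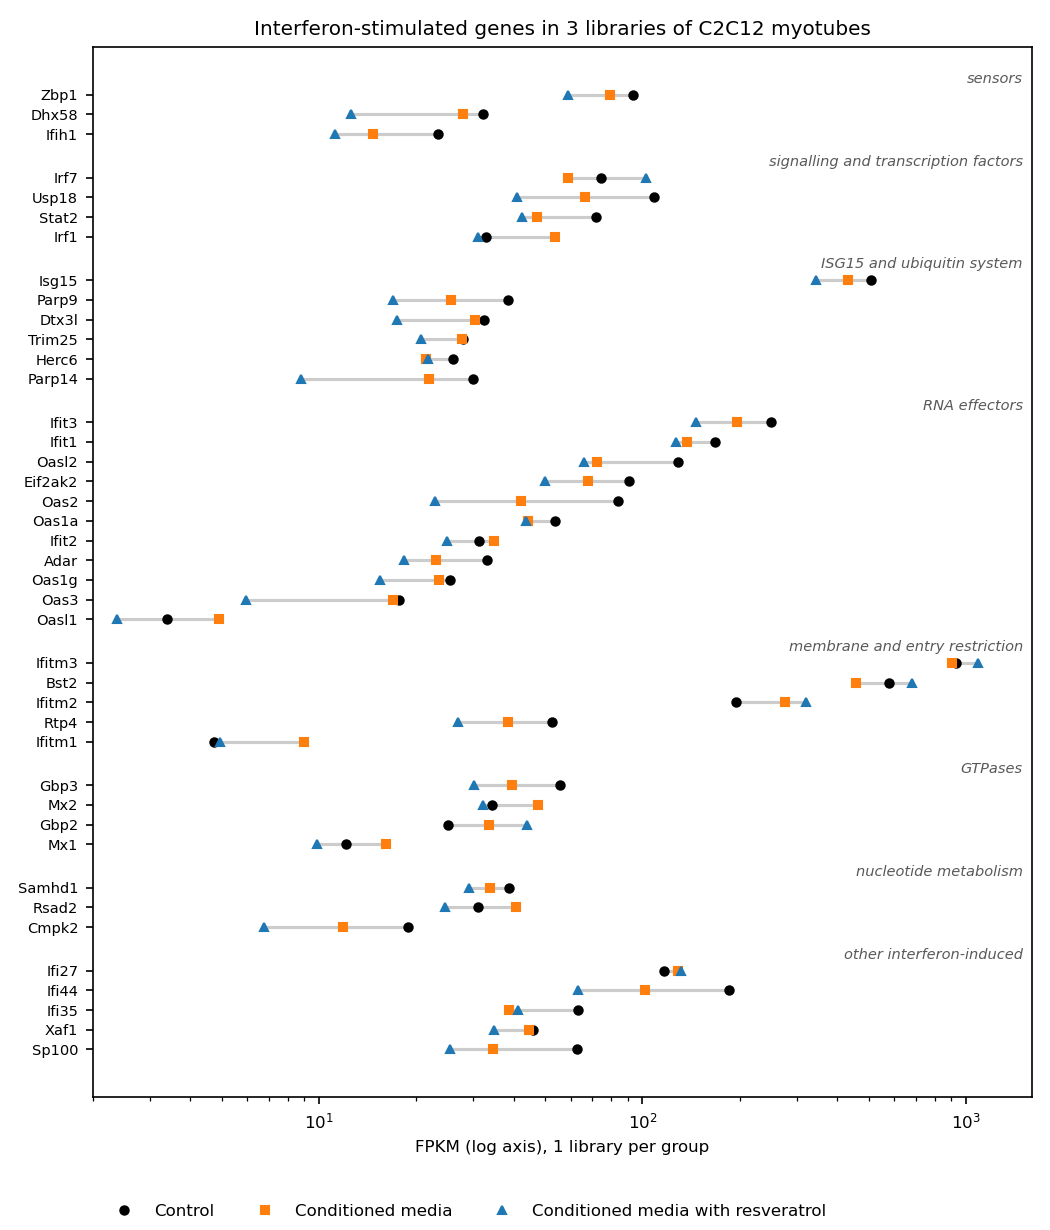
FPKM on a log axis (horizontal) of the 41 genes, grouped by role (vertical), in control (black circles), conditioned media (orange squares) and conditioned media with resveratrol (blue triangles), 1 library each and so without error bars. The triangle lies leftmost for 32 genes and rightmost for 6, among them Irf7, Bst2 and Ifitm3.

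The promoters were searched for the core of the interferon-stimulated response element. The letters themselves were not used to choose the genes. Interferon acts on such genes through this element, though, so a share above that of all symbols could be foreseen and is no independent evidence. RefSeq promoter windows of 300 bases (250 before to 50 after a start, build GRCm38.p6) were matched by symbol for 33 of the 43 genes. The letters searched were GAAA, any 2 bases and GAAA, on both strands, and they were present in 16 of these 33 genes (48.5%) and in 3.99% of all 27025 symbols in the table. The gamma-activated site, TTCNNNGAA on both strands, was present in 9 of 33 genes (27.3%) and in 9.55% of all symbols, and its match overlapped that of the response element in 2 genes. A match is a description of the letters and does not show binding. With the added condition, chosen after values were seen, that a C follows the core, matches remained in 13 of 33 genes (39.4%) and 0.944% of all symbols.

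Of 12 windows with a match before the RefSeq start, 7 are printed to show the element in genes of both directions. Those of Stat2, Ifit1, Ifitm2, Gbp3 and Rsad2 are left out. Of the printed genes, Isg15, Oas1a, Oas1g, Oas3 and Ifit3 were lowest with resveratrol, and Gbp2 and Bst2 were highest with it. Oas1a differed little between the conditioned media libraries (-0.02). Each window is printed on the strand of its gene with the matches in capitals. TTTC, any 2 bases and TTTC is thus the element on the other strand.
Isg15 (chr4:156200860-156200911, minus strand): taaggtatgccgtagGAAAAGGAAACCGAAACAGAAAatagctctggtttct
Oas1a (chr5:120907526-120907560, minus strand): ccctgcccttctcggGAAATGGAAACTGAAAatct
Oas1g (chr5:120887614-120887646, minus strand): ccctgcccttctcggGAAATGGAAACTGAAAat
Oas3 (chr5:120777710-120777749, minus strand): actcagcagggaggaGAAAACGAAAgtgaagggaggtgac
Ifit3 (chr19:34583358-34583431, plus strand): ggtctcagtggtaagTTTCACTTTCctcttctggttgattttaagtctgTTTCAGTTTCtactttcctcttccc
Gbp2 (chr3:142620589-142620628, plus strand): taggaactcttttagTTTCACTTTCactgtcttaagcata
Bst2 (chr8:71537572-71537617, minus strand): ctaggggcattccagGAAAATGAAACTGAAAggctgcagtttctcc

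Isg15 holds 3 overlapping matches, and the windows of Oas1a and Oas1g are identical over the 33 bases they share. Genes with and without the element both had medians below 0. The 15 measured genes with a match had medians of -0.27, -0.33 and -0.56 in the 3 comparisons, and the 16 without one -0.24, -0.42 and -0.41. The 293 measured genes outside the 43 with a match had medians of -0.03, -0.06 and -0.10, against -0.01, 0.04 and 0.01 for all 8237 measured genes without one. With the C after the core, a condition chosen after values were seen, 68 measured genes outside the 43 had medians of -0.14, -0.23 and -0.31.

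The sensors of viral nucleic acid had ratios below 0 in each comparison, on each scale. Dhx58, the regulatory helicase LGP2, stood at 32.2, 27.9 and 12.5 FPKM. Most of the difference lay between the conditioned media libraries, with ratios of -0.20 over control and -1.10 with resveratrol over conditioned media, lower by the size rule (chr11:100694884-100704271, mm10). Ifih1, the long RNA sensor MDA5, was at 23.4, 14.7 and 11.2 FPKM, so most of its difference was already present in conditioned media (ratios -0.64 and -0.36). Zbp1, which binds nucleic acid in the left-handed Z form, was at 93.6, 79.1 and 58.9 FPKM and missed the size rule in each comparison. The row that joins Ddx58, the sensor RIG-I, with Topors was at 75.6, 59.2 and 49.0 FPKM, the same order, though the share of each gene in it is not known.

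Among signalling and transcription factors, the directions differed. Usp18, the protease that removes ISG15 and dampens the type I receptor, stood at 108, 66.5 and 40.9 FPKM. It was lower in both steps by similar ratios (-0.70 and -0.69), and with resveratrol over control it was lower by the size rule (-1.39, chr6:121245870-121270917). Stat2, a subunit of the factor that binds the response element, was at 71.9, 47.2 and 42.6 FPKM, with most of the difference in conditioned media (-0.60 and -0.15). The row that joins Irf9, the DNA-binding partner of Stat2, with Rnf31 was at 43.9, 38.7 and 30.7 FPKM. Against these, Irf7, the factor that amplifies interferon alpha genes, was at 74.4, 58.9 and 102 FPKM, lowest in conditioned media and highest with resveratrol (ratios -0.33 and 0.79). Irf1, a factor induced by interferon gamma and by NF-κB, was at 32.8, 53.8 and 31.0 FPKM, high in conditioned media (0.70) and back near its control level with resveratrol (-0.78). The authors' deposited table calls Irf1 in both of these comparisons and does not call it with resveratrol over control.

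The group of ISG15, its ligases and the ADP-ribosyl transferases had 6 of 6 ratios below 0 in conditioned media over control (4 of 6 after rescaling) and 6 of 6 with resveratrol over control on each scale. Isg15, the ubiquitin-like protein that is joined to other proteins, was the most abundant at 509, 432 and 345 FPKM. Its steps were small (-0.23 and -0.33), and the locus shares its span with another locus. Parp14, a mono-ADP-ribosyl transferase, was at 29.9, 21.9 and 8.82 FPKM and was lower by the size rule with resveratrol, over conditioned media (-1.22) and over control (-1.65, chr16:35832799-35871382). Parp9 and Dtx3l, whose proteins form a complex, lie in 1 span on chromosome 16 next to Parp14, and how fragments were divided between these overlapping loci is not given. Parp9 stood at 38.5, 25.7 and 17.0 FPKM and Dtx3l at 32.4, 30.3 and 17.4 FPKM. Parp9 was lower by the size rule with resveratrol over control (-1.14), while Dtx3l had ratios of -0.09, -0.77 and -0.86. Trim25, a ubiquitin ligase that acts on RIG-I, was at 28.0, 27.8 and 20.7 FPKM. Herc6, an ISG15 ligase of the mouse whose locus shares its span with another, was at 26.1, 21.4 and 21.8 FPKM. Neither came near the size rule.

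All 11 effectors that bind, cut or edit RNA had ratios below 0 with resveratrol, over conditioned media and over control, on each scale, and 9 of 11 did in conditioned media over control (7 of 11 after rescaling). The 2',5'-oligoadenylate synthetases, which activate the nuclease RNase L, were spread widely. Oas2 stood at 84.2, 42.1 and 22.8 FPKM, the largest difference of the 41 genes with resveratrol over control (ratio -1.84, chr5:120730303-120750030), and both steps were of similar size (-0.98 and -0.86). Oas3, its neighbour on chromosome 5, was at 17.7, 17.0 and 5.95 FPKM. Its level in conditioned media was thus close to control, and the whole difference lay in the resveratrol library (-0.06 and -1.37, chr5:120752852-120777659). Oas1a and Oas1g, at 53.7, 44.2 and 43.5 FPKM and at 25.3, 23.5 and 15.4 FPKM, share a span, so their separate values are uncertain.

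The relatives Oasl1 and Oasl2 differed from each other as well. Oasl2 was at 128, 72.6 and 65.7 FPKM, with nearly all of its difference in conditioned media (-0.82 and -0.14). Oasl1, which lies beside it on chromosome 5, was the lowest of the 41 genes at 3.40, 4.90 and 2.37 FPKM and was highest in conditioned media (0.42 and -0.81). The Ifit genes, of which Ifit1 makes a protein that binds RNA without host cap marks, differed less. Ifit3 was at 249.8, 196 and 146 FPKM, Ifit1 at 167, 137 and 127 FPKM and Ifit2 at 31.3, 34.9 and 24.9 FPKM. Each was lowest with resveratrol, none passed the size rule, and Ifit2 was the only one with a ratio above 0 in conditioned media. Eif2ak2, the kinase PKR that stops translation on double-stranded RNA, was at 91.1, 67.8 and 50.1 FPKM (-0.42 and -0.43). Adar, the adenosine deaminase that edits such RNA, was at 33.1, 22.96 and 18.4 FPKM (-0.51 and -0.31), and its locus shares its span with another.

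Genes of membrane proteins were the main exception. Ifitm3, which blocks fusion of virus and endosome membranes, was the most abundant of the 41 genes at 929, 906 and 1089 FPKM, with ratios of -0.04 and 0.27. Bst2, the tetherin that holds budding virus on the cell surface, was at 576, 456 and 681 FPKM, low in conditioned media (-0.34) and highest with resveratrol (0.58). Ifitm2 was at 194, 276 and 320.3 FPKM, above control in both conditioned media libraries (0.51 and 0.72 over control). Ifitm1, at 4.73, 8.99 and 4.96 FPKM, was high in conditioned media alone. Only Rtp4, a chaperone of membrane receptors, kept the order of the majority at 52.6, 38.3 and 26.9 FPKM. The median ratio of the 5 genes was 0.21 with resveratrol over conditioned media and 0.23 over control, above 0 on each scale, while that of conditioned media over control was -0.04 and turned to 0.16 after rescaling. None of these genes passed the size rule. Of the 5, only Rtp4 has a longest transcript over 1000 bases (1859 bases). All 513 measured genes under 1000 bases had medians of 0.20 with resveratrol over conditioned media and 0.26 over control. The part of length in this exception was not tested.

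The GTPases were split, and their median of -0.19 with resveratrol over control moved to 0.003 as TPM and -0.002 with equal sums. Mx1 and Mx2, dynamin-like proteins that trap viral nucleoproteins, were at 12.1, 16.1 and 9.84 FPKM and at 34.3, 47.5 and 32.1 FPKM, both highest in conditioned media (0.38 and 0.46). With resveratrol they were again at or under their control level (-0.28 and -0.09 over control). Gbp2 and Gbp3, guanylate-binding proteins that attack vacuoles of pathogens, are neighbours on chromosome 3 and had opposite orders. Gbp2 was at 25.1, 33.6 and 44.0 FPKM (0.79 with resveratrol over control, the highest ratio of the 41 genes there) and Gbp3 at 55.6, 39.4 and 30.1 FPKM (-0.87). The locus of Gbp2 shares its span with another locus, so its separate value is uncertain.

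Rsad2, the enzyme viperin that makes a chain-terminating nucleotide, and Cmpk2, the kinase that supplies its substrate, form another neighbouring pair, on chromosome 12. Rsad2 was at 31.0, 40.7 and 24.6 FPKM, highest in conditioned media. Cmpk2 was at 18.8, 11.8 and 6.74 FPKM, lower in each step (-0.63 and -0.73), and lower by the size rule with resveratrol over control (-1.36, chr12:26469215-26479837). In conditioned media the 2 neighbours thus lay on opposite sides of control, and with resveratrol both were lower than in conditioned media (-0.71 and -0.73). Samhd1, which degrades deoxynucleotides, was at 38.8, 33.7 and 29.2 FPKM, with no ratio past -0.40.

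The remaining genes held 2 of the lowest ratios. Ifi44, an interferon-induced cytoplasmic protein, stood at 186, 102 and 63.2 FPKM (-0.85, then -0.68), and with resveratrol over control it was lower by the size rule (-1.54, chr3:151730923-151749993). Sp100, a protein of nuclear bodies, was at 62.8, 34.6 and 25.5 FPKM and was lower by the size rule in the same comparison (-1.27, chr1:85649978-85709965). It is the 1 gene of the 41 that holds a small RNA gene on its strand, and the authors' deposited table gives it q-values of 0.0224, 0.36 and 0.0139 in the order of the comparisons, so resveratrol over conditioned media was not called. Ifi35 was at 63.2, 38.8 and 41.2 FPKM, with its whole difference in conditioned media (-0.69). Xaf1, named for its link to an inhibitor of apoptosis, was at 45.8, 44.6 and 34.9 FPKM, and Ifi27, which shares its span with another locus, at 116, 129 and 131 FPKM.

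The genes past the size rule and those just short of it formed no sharp boundary. With resveratrol over control, Parp9 at -1.14 was the member nearest inside the limit and Ifih1 at -0.996 and Oasl2 at -0.96 were nearest outside. With resveratrol over conditioned media, Dhx58 at -1.10 was nearest inside and Oas2 at -0.86 nearest outside. In conditioned media over control Oas2 at -0.98 came nearest.

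Transcript length moved with the ratios. The longest protein-coding transcripts in GENCODE M21 run from 655 bases (Ifitm2) to 7417 bases (Parp14), and Ifitm2, Ifitm3, Bst2 and Ifi27, of the 6 genes highest with resveratrol, are under 1000 bases. The 6 genes under 1000 bases had a median ratio of 0.20 with resveratrol over control, and all 513 measured genes of that length one of 0.26. In the longer classes the 2 values were apart. Between 1000 and 2000 bases the 7 genes had a median of -0.68 against 0.05, between 2000 and 4000 bases the 19 genes -0.39 against 0.00, and over 4000 bases the 9 genes -0.85 against -0.05. With resveratrol over conditioned media, the medians of the 4 classes from short to long were 0.12, -0.43, -0.55 and -0.41, against 0.20, 0.06, 0.02 and 0.01. Over the 41 genes, Spearman's rho of length and ratio was -0.25 in conditioned media over control, -0.30 with resveratrol over conditioned media and -0.45 with resveratrol over control. Over 10490 measured genes these were -0.06, -0.08 and -0.12. These points are genes of the same libraries and not replicates. After the median of all genes of the same length class was subtracted, 9 genes were again lower by the size rule in that comparison and the median was -0.69.

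**Figure D3:**
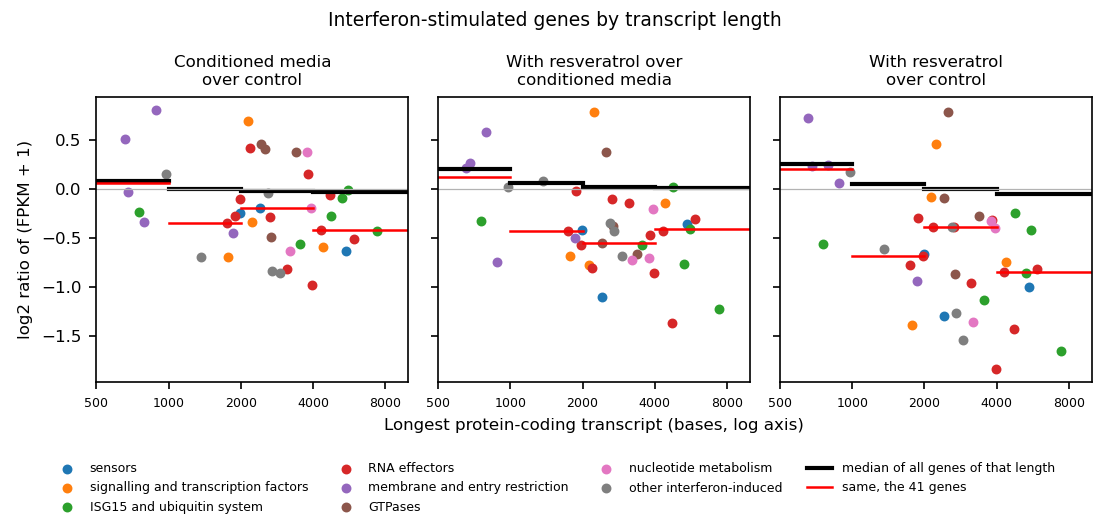
Log2 ratio of FPKM + 1 (vertical axis) against the length of the longest protein-coding transcript in bases (log axis, horizontal) for the 41 genes, coloured by role, in the 3 comparisons. Black bars are medians of all measured genes in 4 length classes and red bars those of the 41 genes, which lie close together under 1000 bases and apart above, for example at 0.05 and -0.68 with resveratrol over control between 1000 and 2000 bases.

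The parts of the pathway before these genes did not share one direction. Of 21 interferon ligand genes, 15 were listed at 0 in every library and only Ifnb1, interferon beta, averaged 1 FPKM or more, at 0.168, 2.52 and 1.74 FPKM. Ifnb1 was thus lowest in control, where most of the 41 genes were highest on the deposited scale. Its ratios over control were 1.59 and 1.23, higher by the size rule, and 1.66 and 1.29 with equal sums. As TPM, where the pseudocount weighs more, they were 0.82 and 0.60, short of the rule. The authors' deposited table did not test Ifnb1 with resveratrol over control and calls it in neither of the other comparisons. The receptors Ifnar1 and Ifnar2 stood at 11.0, 12.4 and 15.9 FPKM and at 24.5, 33.4 and 43.7 FPKM, each highest with resveratrol. The gamma receptor genes Ifngr1 and Ifngr2 were at 23.2, 21.8 and 25.9 FPKM and at 28.3, 33.3 and 37.3 FPKM. Among the kinases, Jak1 was at 43.3, 49.5 and 49.5 FPKM and Tyk2 at 7.86, 10.8 and 8.43 FPKM.

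The sensing and induction genes outside the set had medians of -0.04 in conditioned media over control, which turned to 0.13 as TPM, and -0.39 with resveratrol over control, which moved to -0.18 as TPM and -0.22 with equal sums. Tlr3, the endosomal sensor of double-stranded RNA, was at 13.1, 9.72 and 3.31 FPKM and Tmem173, the adaptor STING, at 11.7, 12.4 and 3.61 FPKM. Both were lower by the size rule with resveratrol, over conditioned media (-1.31 and -1.53) and over control (-1.71 and -1.47). Irf5, at 2.39, 4.21 and 0.902 FPKM, passed the size rule over conditioned media alone (-1.45), with a ratio of -0.83 over control. The adaptor Mavs, the kinase Tbk1 and the factor Irf3 were within 9.05 to 15.8 FPKM in every library. Of the negative regulators, Socs1, the feedback inhibitor of Jak kinases that interferon induces, was at 5.39, 9.23 and 3.34 FPKM, high in conditioned media and lower with resveratrol (-1.24). Socs3, the feedback inhibitor of the IL-6 receptor family, was at 12.7, 22.7 and 68.8 FPKM, higher by the size rule with resveratrol (1.56), while Stat3 stood at 43.2, 59.5 and 66.8 FPKM.

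A list of 50 further interferon-stimulated genes, of which 38 were measured, lay on the same side as the 41. The list was chosen with earlier results of these data known, so it gives the 41 genes no independent check. In conditioned media over control 26 of 38 ratios were below 0, with a median of -0.13 that turned to 0.05 after rescaling, and 0 passed the size rule. With resveratrol over conditioned media 35 of 38 were below 0 on each scale, with a median of -0.59, and 8 were lower by the size rule and 0 higher, where 4.97% of all loci were lower. With resveratrol over control 14 of 38 were lower and 0 higher, where 5.25% of all loci were lower. The median there was -0.72, and -0.47 as TPM. Parp11 had the lowest ratio of this list at 11.8, 8.76 and 2.64 FPKM (-1.82), followed by Samd9l at 52.0, 39.6 and 16.4 FPKM, the helicase Mov10 at 12.1, 10.4 and 3.60 FPKM and Gm4951 at 13.0, 12.3 and 4.46 FPKM. In each of these the larger part of the difference lay between the conditioned media libraries, as in Oas3, Parp14 and Dhx58.

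Genes that interferon gamma induces were divided, with a median of 0.02 in conditioned media over control and 0.15 with resveratrol over control among 20 measured. These medians moved to 0.21 and 0.26 as TPM and to 0.22 and 0.32 with equal sums. With resveratrol over conditioned media the median was -0.16. The immunity-related GTPases Irgm1 and Iigp1 were at 138, 80.1 and 31.6 FPKM and at 83.1, 63.8 and 29.0 FPKM, lower by the size rule with resveratrol over conditioned media (-1.32 and -1.11). Psmb9, an immunoproteasome subunit, was at 6.35, 18.8 and 19.2 FPKM and the chemokine Cxcl11 at 0.611, 4.39 and 1.77 FPKM, both higher by the size rule in conditioned media (1.43 and 1.74). H2-K1, a class I heavy chain, was at 271, 343 and 597 FPKM and was higher by the size rule with resveratrol over control (1.14). The loci of Cxcl11 and H2-K1 share their positions with other loci.

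**Figure D4:**
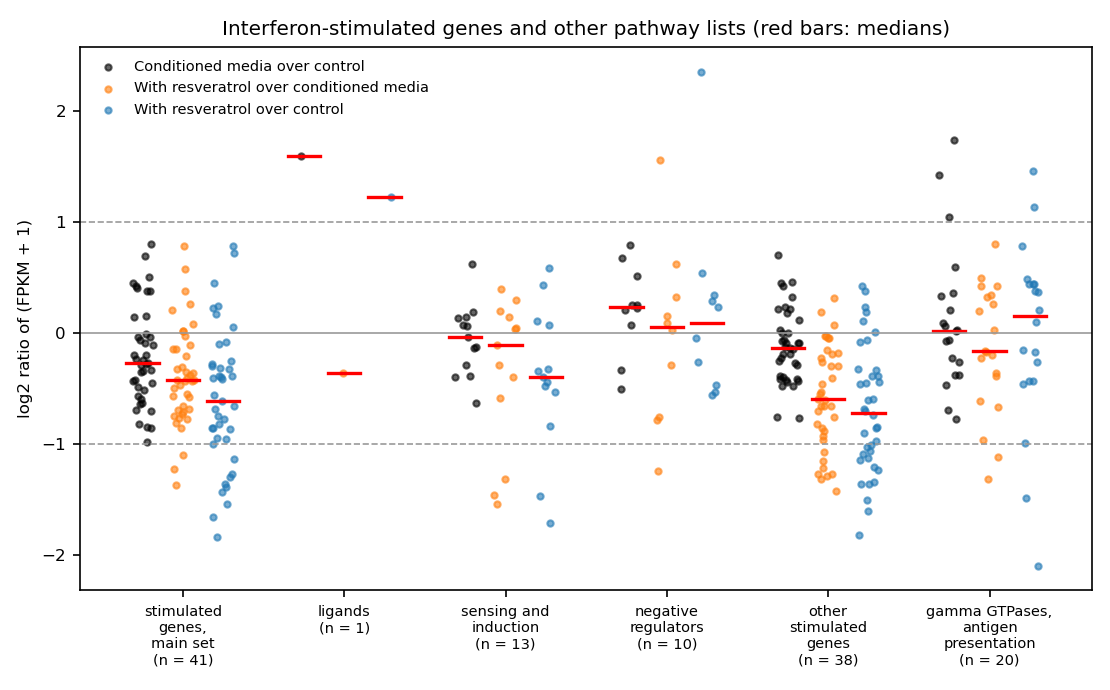
Log2 ratio of FPKM + 1 (vertical axis) of the 41 genes and of the measured genes of 5 other pathway lists (horizontal axis) for conditioned media over control (black), resveratrol over conditioned media (orange) and resveratrol over control (blue), with medians as red bars. The 41 genes and the 38 further stimulated genes lie mostly below 0 with resveratrol, with medians of -0.43 and -0.59 over conditioned media. The gene counts are printed under each list.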

How the data were processed

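Per the labels' protocols, TRIzol and then RNeasy columns were used for RNA, and Illumina TruSeq for libraries. FPKM values for each locus were computed by the authors and deposited in a Cuffdiff table, per the file headers. The submitters' processing notes name the genome build mm10 and, without their roles, Cuffdiff 2.2.1.3, Cufflinks 2.2.1.0, Bowtie, TopHat2 2.1.0, Trim Galore 0.4.3.1 and FastQC 0.69. The annotation, the strand setting and the way libraries were scaled were not given in any source used here. The same deposited table gives log2 fold changes, a test statistic (a score), p-values and q-values of the authors.

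Libraries were matched to groups by the number in each sample's description. Ratios used a pseudocount of 1 FPKM and the locus of highest mean, though no gene of the 41 had several loci. No test was possible with 1 library per group, so counts and medians stand beside those of all loci. The genes and pathway lists were chosen with earlier results of these data known. All of the 43 genes may be named, with set pathway genes and up to 4 per list by absolute ratio, and 1 further gene, H2-K1, was named after its values were seen. A pathway gene is not reported here. Starts were read as counted from 0, since start plus 1 met the RefSeq start for 10495 of 22460 loci and the start itself for 617. Promoters are from RefSeq on GRCm38.p6, the assembly of mm10, and lengths from GENCODE M21. Another 7 settings, and 2 more chosen after the data were seen, were tried. The size rule was tested on simulated data. Python 3.11.15, pandas 2.3.3, numpy 2.4.6, scipy 1.17.1 and matplotlib 3.10.9 were used.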

Additional observations from a re-analysis of the deposited data

How the results depend on the processing

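No replicate could be left out and no paired analysis was possible because each group has 1 library. In this paragraph the 3 values stand for conditioned media over control, resveratrol over conditioned media and resveratrol over control. The median log2 ratios of the 41 genes (-0.27, -0.43 and -0.61) kept their sign under all 9 alternatives. They were -0.28, -0.43 and -0.62 at a pseudocount of 0.1, -0.23, -0.40 and -0.56 at a pseudocount of 5, and -0.27, -0.42 and -0.63 for the 40 genes with a mean of 5 FPKM or more. They were -0.077, -0.41 and -0.40 after rescaling to TPM, which also raises the weight of the pseudocount, -0.26, -0.45 and -0.61 when centred on the median of all loci, and -0.31, -0.43 and -0.63 for the 32 genes whose locus shares its position with no other. Subtracting the median of all genes of the same length class, gave -0.26, -0.48 and -0.69, and equal library sums at their mean level, which keep the weight of the pseudocount, gave -0.082, -0.43 and -0.42. Both of these alternatives were chosen after seeing the data. Removing the filter left all 41 genes and all values as they were. Counts of genes past the size rule were 0 higher in each comparison under every alternative, and 0 lower in conditioned media over control. With resveratrol over conditioned media the count of 3 lower moved to 1 at a pseudocount of 5, where Dhx58 and Parp14 came under the rule, and to 2 as TPM, where Dhx58 did (-0.998), while with equal sums it stayed at 3 (Dhx58 -1.10). With resveratrol over control it stayed between 8 and 10, and Parp9 was short of the rule at a pseudocount of 5 (-0.98), as TPM (-0.88) and with equal sums (-0.95). Depth behind each FPKM is unknown, which limits the lowest genes most, such as Oasl1 and Ifnb1.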

Other observations

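Of the listed pathway genes outside the 43, some have no row of their own, and they fall in 15 joint rows that are in no count of the report. With resveratrol over conditioned media, 9 of the 15 joint rows had log2 ratios of FPKM + 1 below 0, against 47.4% of all loci, and 4 were lower by the size rule and 0 higher, where 4.97% and 1.53% of all loci were. These 4 hold the GTPases Tgtp1 and Tgtp2 with 3 other symbols (29.5, 26.3 and 5.33 FPKM in control, conditioned media and conditioned media with resveratrol), Igtp and Irgm2 (125, 103 and 43.2 FPKM), Ifi47 and Olfr56 (23.8, 15.2 and 5.67 FPKM) and Slfn8 and Slfn9 (19.4, 11.8 and 4.91 FPKM). Their ratios ran from -2.11 to -1.12. On the other side, the class I row of H2-D1 and H2-L was at 205, 243 and 373 FPKM. These rows were named after their values were seen, and the share of each gene in a row is not known.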
